A study of Mus musculus with 15 samples.

Results

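Gene expression in the gastrocnemius of aged mice with a high number of frailty markers was compared between mice that had run downhill and mice that had not. The comparison uses 7 of the 15 sequenced mice, namely the 4 labelled frail 24h (High Run; mice D49, D52, D53 and D62) and the 3 labelled frail control (High Control; mice D23, D25 and D67), and it covers every gene that passed a filter on low counts. All animals in the study were female C57BL/6JN mice over 17 months old. Mice with 2 or more positive frailty markers formed the High group and those with 1 or none formed the Low group, where a marker was an extreme value within this cohort for body weight, a clinical frailty index, treadmill distance, grip strength or Rotarod latency. The High group is therefore defined against other aged mice and not against young animals. High Run mice ran on a treadmill at a 22 degree decline in 2 bouts, at up to 13 m/min, and the muscle was taken 24 h after the last bout. High Control mice stayed in their cages. Low Run (4 mice, labelled robust 24h) and Low Control (4 mice, labelled robust control) mice are used only to say whether a response differed with frailty. Each library came from 1 mouse, and polyadenylated RNA was sequenced.

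Downhill running makes the calf muscles lengthen under load, which strains sarcomeres and membranes. Macrophages that enter or expand in strained muscle clear debris through lysosomal proteases, and interferons in inflamed tissue induce the genes that present antigen on major histocompatibility complex (MHC) class I. Contraction also raises immediate early genes such as Fos and Egr1, transcription factors whose messages appear and decay quickly. Muscle repair reuses embryonic genes such as the embryonic myosin Myh3.

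The 7 High libraries held between 21110987 and 30699216 counts assigned to genes, and 16920 of the 55450 genes in the table were tested, while 20031 had no count in any library. Levels are given as CPM, a gene's counts in a library brought to a total of 1000000 and scaled for library composition, in the order D23, D25 and D67 for High Control and D49, D52, D53 and D62 for High Run. Log2 fold changes are High Run minus High Control, so that 1 is a doubling. Before any gene was compared, 2 High Run mice stood apart. Mouse D62 lay at 78.2 on a first principal component that held 34.4% of the variance of the 7 mice, where the other 6 lay between -22 and -4.52. Mouse D53 lay at -58.3 on the second component (19.6%), where the other 6 lay between 2.81 and 20.6. The biological coefficient of variation, the spread of a typical gene between mice of 1 group, was 0.149 in High Control, 0.307 in High Run and 0.231 in High Run without D62.

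No gene differed between High Run and High Control at a false discovery rate (FDR) of 0.1 in the quasi-likelihood test of edgeR on all 15 mice (0 of 16920, or 0%). At an unadjusted p under 0.05, 555 genes were higher in High Run (3.28% of those tested) and 322 were lower (1.9%), 877 in all (5.18%). The smallest adjusted p was 0.396, for Galnt6, and the next was 0.956. Other tests of the same counts did call genes at FDR 0.1. DESeq2 on the 7 High mice called 53 (31 higher and 22 lower, 0.259%), DESeq2 on all 15 mice called 15 (9 higher and 6 lower, 0.0934%) and limma voom, which gave D62 a weight of 0.241 and D53 a weight of 0.393, called 45 (27 higher and 18 lower, 0.266%). The edgeR test without the filter on low counts called 19. All 3 of the DESeq2 and voom fits called the same 11 genes, with Ankrd1, Ctss, Galnt6, Lgals3, Mpeg1, Mt3 and Rin1 higher and Cacng7, Cbfb, Ces1d and Coq10b lower. These fits share the same mice, so their overlap is not independent evidence. In the text that follows, a gene is described as higher or lower by its values, single genes have their log2 fold change with its standard error (SE) from edgeR, and members of gene lists are counted at an unadjusted p under 0.05 in that test. Every gene so counted had an edgeR adjusted p of 0.956.

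The differences were uneven in direction across expression levels. Among 4230 genes with the lowest mean CPM over all 15 mice (0.148 to 1.63 CPM), 232 were higher in High Run at an unadjusted p under 0.05 and 48 were lower. Among the 4230 genes with the highest mean, above 31.8 CPM, 50 were higher and 166 were lower. The median log2 fold change was 0.17 in the first of these sets and -0.02 in the second, beside 0.05 over all genes tested. Of the genes with a log2 fold change beyond 1 in size, 502 were higher and 124 were lower. The libraries also differed in content. High Run libraries held counts for 24268 to 25886 genes and High Control libraries for 21782 to 23807. The 10 most abundant genes of a library held 20.5% to 24.8% of its counts in High Run and 24.5% to 26.3% in High Control. The part of library content in the uneven direction was not tested.

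**Figure D1:**
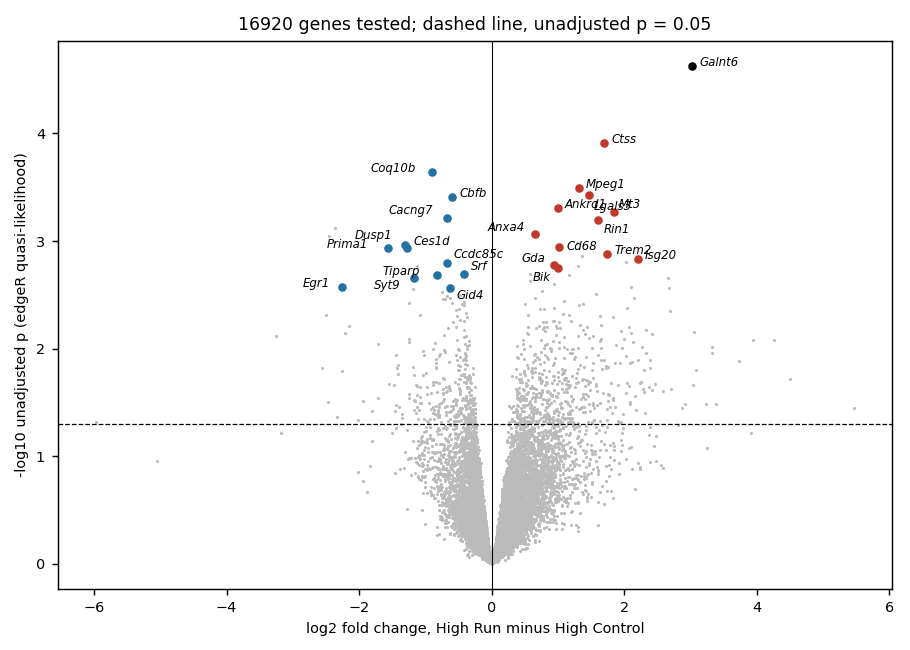
Log2 fold change of High Run minus High Control (x axis) against -log10 of the unadjusted edgeR p (y axis) for 16920 genes, 1 point a gene. The 12 genes named as higher are in red, the 12 named as lower in blue and Galnt6 in black. No point reached FDR 0.1, and more genes lay beyond a log2 fold change of 1 on the right (502) than beyond -1 on the left (124).

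The gene with the smallest edgeR p was Galnt6, which encodes a Golgi enzyme that starts mucin-type O-glycosylation (GRCm38 chr15:100691813-100729376, minus strand). It was measured at 0.077, 0.148 and 0.048 CPM in High Control and at 0.70, 1.25, 0.638 and 0.598 CPM in High Run. The groups did not overlap, and the log2 fold change was 3.02 (SE 0.51, edgeR adjusted p = 0.396). At these levels a library held few reads of Galnt6, and the gene was singled out after its values were seen, because its mean lay under the 1 CPM that the naming rule requires.

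The 12 named genes that were higher in High Run differed by 1.57-fold to 4.61-fold, and for each of them the 4 High Run mice lay above the 3 High Control mice, as the rule for naming them requires. Several are known from macrophages. Ctss encodes cathepsin S, a lysosomal protease that trims the MHC class II invariant chain (ENSMUSG00000038642, chr3:95526786-95556403, plus strand). Its levels were 6.29, 6.94 and 9.43 CPM in High Control and 28.9, 19.6, 31.4 and 18 CPM in High Run, a 3.24-fold difference (log2 fold change 1.70, SE 0.33). Even the lowest High Run mouse, D62, lay well above the highest High Control mouse. Low Control mice, which had not run either, stood at 8.94 to 18 CPM for Ctss, which reached the level of D62. Mpeg1, the pore-forming perforin-2 of phagocytes, stood at 5.21, 4.28 and 5.6 CPM in High Control and at 17.6, 12.9, 9.47 and 10.1 CPM in High Run (log2 fold change 1.31, SE 0.29). Cd68, a lysosomal glycoprotein of macrophages, stood at 3.24, 5.21 and 4.50 CPM against 13.0, 6.47, 9.67 and 5.86 CPM (log2 fold change 1.01, SE 0.26). For Cd68 the gap between the groups was narrow, with D25 at 5.21 CPM just under D62 at 5.86 CPM. Low Control mice stood at 6.95 to 9.77 CPM for Mpeg1 and at 5.64 to 6.79 CPM for Cd68. For both genes they lay above all High Control mice and overlapped High Run.

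Lgals3 and Trem2 mark macrophages that take up lipid and debris. Lgals3, the galactoside-binding lectin galectin-3 (chr14:47367751-47386160, plus strand), stood at 11.0, 11.6 and 11.0 CPM in High Control and at 26.7, 23.8, 23 and 49.6 CPM in High Run (log2 fold change 1.46, SE 0.32). Mouse D62 was far above the other 3 High Run mice, and without it the log2 fold change was 1.12. Trem2, a lipid receptor of phagocytes, stood at 0.463, 0.480 and 0.479 CPM against 2.02, 1.67, 1.61 and 1.10 CPM (log2 fold change 1.74, SE 0.45). For Trem2 the order was turned round, with D62 the lowest of the 4 High Run mice.

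Of the other named genes that were higher, some belong to fibres and some to no single cell type. Ankrd1 encodes a titin-associated ankyrin repeat protein that muscle makes under stretch (chr19:36111961-36120099, minus strand). It stood at 34.4, 36.8 and 36.5 CPM in High Control and at 89.9, 69.1, 57.4 and 70.8 CPM in High Run (log2 fold change 1.00, SE 0.23). The 3 control mice were nearly alike, and every High Run mouse lay above all of them. Low Control mice, which had not run either, stood at 58.4 to 79.3 CPM for Ankrd1. Mt3, a metal-binding metallothionein, stood at 0.734, 1.03 and 1.87 CPM against 3.33, 4.35, 4.87 and 4.63 CPM (log2 fold change 1.84, SE 0.42). Rin1, a Ras effector that acts in endocytosis, stood at 1.00, 1.33 and 0.670 CPM against 3.87, 4.45, 1.71 and 2.30 CPM (log2 fold change 1.6, SE 0.38). Its values in D53 and D62 lay closer to the controls than those in D49 and D52. The remaining 4 were Anxa4, a calcium-dependent membrane-binding annexin (log2 fold change 0.65), Isg20, an interferon-induced exonuclease (2.21), Gda, guanine deaminase (0.93), and Bik, a pro-apoptotic protein of the BCL2 family (1.00).

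The 12 named genes that were lower in High Run differed by 1.34-fold to 4.77-fold. Coq10b encodes a mitochondrial protein that binds coenzyme Q (ENSMUSG00000025981, chr1:55052770-55072702, plus strand). It stood at 31.7, 33.3 and 39.1 CPM in High Control and at 18.2, 20.6, 23 and 12.3 CPM in High Run (log2 fold change -0.91, SE 0.19). Cbfb, the shared partner of the RUNX transcription factors (chr8:105170674-105217989, plus strand), stood at 191, 182 and 212 CPM against 126, 143, 121 and 126 CPM (log2 fold change -0.60, SE 0.13). Both genes kept a clear gap between the groups. Low Control mice lay below High Control for both, at 17.8 to 27.9 CPM for Coq10b and 142 to 169 CPM for Cbfb. Ces1d, a carboxylesterase with lipase activity, stood at 106, 167 and 203 CPM against 70.6, 67.3, 92.6 and 30.1 CPM (log2 fold change -1.28, SE 0.32). Here the gap was small, because D23 at 106 CPM was close to D53 at 92.6 CPM. Cacng7, a regulatory subunit of calcium channels and AMPA receptors, stood at 25.2, 20.9 and 26.4 CPM against 15.2, 14.4, 16.9 and 13.9 CPM (log2 fold change -0.68, SE 0.16).

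Among the other named genes that were lower, Dusp1, Srf and Egr1 belong to the response to growth signals and load and are described below with the immediate early genes. Tiparp, a mono-ADP-ribosyltransferase induced by the aryl hydrocarbon receptor, had a log2 fold change of -0.83. Gid4, the part of an E3 ubiquitin ligase that recognises its substrates, had one of -0.63. Prima1, which anchors acetylcholinesterase in membranes, had one of -1.56, Syt9, a synaptotagmin of regulated exocytosis, one of -1.17, and Ccdc85c, a coiled-coil protein, one of -0.68.

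**Figure D2:**
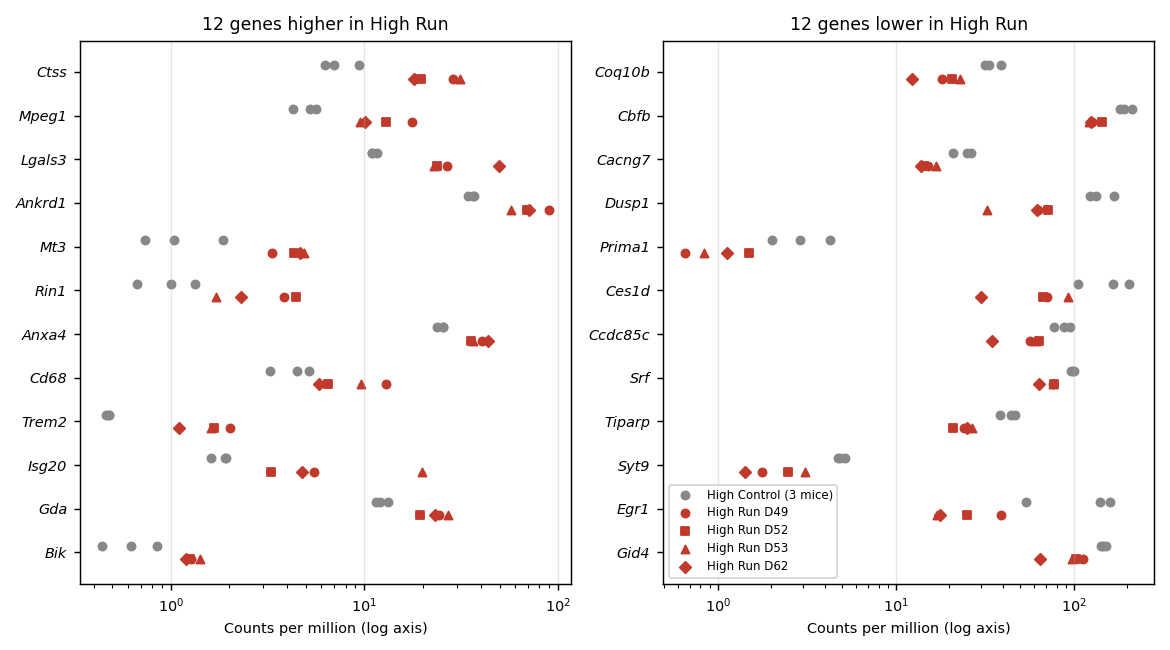
Level of each of the 24 named genes in every High mouse, in CPM on a log axis, with High Control mice in grey and High Run mice in red with 1 shape a mouse. The 2 colours do not overlap in any row, which the naming rule requires, and D62 is far to the right for Lgals3 and D53 for Isg20.

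All 28 macrophage markers were tested and all 28 had a positive log2 fold change, with a median of 0.73 beside 0.05 over all genes. An unadjusted p under 0.05 was reached by 13 of the 28 (46.4%, beside 3.28% of all genes) and by none in the other direction. In 7 of the 28 the groups did not overlap (3.47% of all genes were higher without overlap). Receptors for antibody Fc parts were among them, with Fcgr2b at 4.36, 6.05 and 4.17 CPM in High Control and at 9.38, 10.2, 9.90 and 7.78 CPM in High Run (log2 fold change 0.94, SE 0.26). The complement C1q chains C1qa, C1qb and C1qc, made by resident macrophages, had log2 fold changes of 0.79, 0.87 and 0.75. Lyz2, lysozyme of myeloid cells, stood at 41.9, 46.5 and 58.4 CPM against 108, 75.8, 113 and 50.5 CPM, so that D62 lay among the controls. The defining markers Csf1r, the receptor for colony-stimulating factor 1, and Adgre1, which encodes F4/80, were not among the 13 (log2 fold changes 0.50 and 0.88). The resident-type receptors Mrc1 and Cd163 had log2 fold changes of 0.48 and 0.53.

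The macrophage signal differed between the High Run mice. Averaged over the list on a log2 scale and set to 0 for the High Control mean, the control mice lay between -0.26 and 0.29 and the High Run mice between 0.02 and 1.17. Mouse D62 was the lowest of the 4, and the other 3 lay at 0.62 or above. Low Control mice, which had not run, lay between -0.22 and 0.77 on that scale. Without D62, 18 of the 28 markers had an unadjusted p under 0.05 and the median was 0.91. In bulk muscle, more macrophages and more RNA of these genes in each macrophage cannot be told apart.

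Genes that mark lipid-handling macrophages and lysosomes were higher in part. An unadjusted p under 0.05 was reached by 6 of 19, all of them higher (31.6%), and the list median was 0.28, and 0.05 with D53 and D62 both left out. On the list average the 4 High Run mice lay between 0.38 and 0.59 and the 3 controls between -0.01 and 0.01, without overlap. Low Control lay between 0.002 and 0.40 on that scale. The summed level of the list did overlap, at 2590 to 2829 CPM in High Control and 2674 to 3567 CPM in High Run. Gpnmb, a membrane glycoprotein of phagocytes, stood at 8.38, 12.9 and 11.7 CPM in High Control and at 26.0, 17.0, 22.0 and 33.4 CPM in High Run (log2 fold change 1.16, SE 0.35). Apoe, the lipid carrier apolipoprotein E, stood at 99.6, 169 and 135 CPM against 172, 146, 263 and 236 CPM, with an overlap at D25 (log2 fold change 0.61, SE 0.23). Phagocytes also carry an oxidase. Of 9 NADPH oxidase subunits tested, 3 were higher at an unadjusted p under 0.05 (33.3%, beside 3.28% of all genes) and none was lower. The 3 were Cyba, Ncf1 and Cybb, with log2 fold changes of 0.66, 0.60 and 0.93. On the list average High Control lay between -0.18 and 0.22 and High Run between -0.29 and 1.00, with D62 the lowest. The list median was 0.72 in High and 0.71 in Low mice.

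Markers of other leukocytes were at low levels. Of 12 neutrophil and acute-phase genes tested, 1 was higher at p under 0.05 (Saa3) and all 12 were positive, with a median of 0.59. Lcn2, the iron-binding acute-phase protein lipocalin-2, stood at 1.97, 2.77 and 2.11 CPM in High Control and at 4.16, 7.58, 16.2 and 10.4 CPM in High Run (log2 fold change 2.07, SE 1.12), without overlap, and DESeq2 on the 7 High mice gave it an adjusted p of 0.000606. It did not have an unadjusted p under 0.05 in edgeR. Among markers of neutrophils themselves, Ly6g, which defines mouse neutrophils, was at 0 in D25, D52 and D62. Ngp, a granule protein, was at 10.2 CPM in D53 and at most 0.741 CPM in the other 6 mice. All 11 lymphocyte markers tested had a positive log2 fold change, with a median of 1.39 beside 0.73 for the macrophage markers. Cd3e, a chain of the T cell receptor complex, was the 1 of them at p under 0.05 (log2 fold change 2.08), from 0.037 to 0.144 CPM in High Control to between 0.206 and 0.591 CPM in High Run. The summed level of the lymphocyte list was 1.33 to 4.13 CPM in High Control and 4.57 to 8.14 CPM in High Run, so the groups did not overlap. The summed macrophage list did overlap, at 166.7 to 247.5 against 235.5 to 468.1 CPM.

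Chemokines went both ways. At an unadjusted p under 0.05, 5 of 24 were higher (20.8%) and 2 were lower (8.33%). Ccl8, which attracts monocytes, stood at 0.811, 0.665 and 0.383 CPM in High Control and at 2.88, 3.97, 2.89 and 2.77 CPM in High Run (log2 fold change 2.31, SE 1.03). Ccl9 and Ccl6 had log2 fold changes of 0.68 and 0.76, with D62 among the controls for both. Cxcl13, which attracts B cells, rested on D62, which stood at 20.6 CPM beside at most 3.21 CPM in the other 6 mice, and its log2 fold change was 0.89 without D62 in place of 2.41. Ptgs2, the inducible cyclooxygenase, was lower, at 2.36, 1.70 and 3.93 CPM against 1.15, 0.661, 0.369 and 0.126 CPM (log2 fold change -2.22, SE 0.72). The groups did not overlap for Ptgs2. The other lower gene was Cxcl1, a neutrophil attractant (log2 fold change -2.34, SE 1.06).

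Among the immune lists, MHC class I presentation had the largest share of genes at an unadjusted p under 0.05. Of 19 tested, 10 were higher at that p (52.6%) and none lower. In 13 of 19 the groups did not overlap, and the median log2 fold change was 0.60. On the list average High Control lay between -0.08 and 0.12 and High Run between 0.33 and 0.78. Low Control lay between -0.29 and 0.71 on that scale. H2-D1, a classical class I heavy chain, stood at 123.2, 123.5 and 142 CPM in High Control and at 171, 184, 219 and 235 CPM in High Run (log2 fold change 0.64, SE 0.22). Nlrc5, the transactivator of class I genes, stood at 1.74, 2.03 and 1.96 CPM against 5.6, 6.29, 4.03 and 3.72 CPM (log2 fold change 1.36, SE 0.52). Tap1, a subunit of the peptide pump that supplies class I molecules, stood at 6.10, 4.10 and 6.27 CPM against 10.9, 12.9, 13.9 and 9.35 CPM (log2 fold change 1.10, SE 0.46). The immunoproteasome subunits Psmb8 and Psmb9 had log2 fold changes of 0.89 and 0.92 and were the only 2 of 38 proteasome genes at p under 0.05. Heavy chain genes such as H2-K1, H2-Q4 and H2-Q6 are near-identical copies, and only uniquely aligned reads were counted, so their separate levels are uncertain. In class II, none of 8 genes tested had an unadjusted p under 0.05. Cd74, the invariant chain, stood at 54.8, 51.9 and 60.9 CPM against 60.3, 134, 130 and 37.7 CPM, so that D49 lay within the control range, D52 and D53 above it and D62 below it. The list median was 0.70, and 0.44 without D53.

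The interferon-induced GTPases, which attack the vacuoles of intracellular microbes, were higher in direction but few passed a test. All 18 tested had a positive log2 fold change with a median of 1.00, 6 of 18 did not overlap between the groups, and 1 of 18 had an unadjusted p under 0.05 (5.56%, near the 3.28% of all genes). That gene, Ifi47, stood at 1.08, 1.03 and 1.44 CPM in High Control and at 3.29, 4.52, 4.83 and 1.98 CPM in High Run (log2 fold change 1.63, SE 0.50). Gbp7, a guanylate-binding protein, stood at 4.87, 6.87 and 6.61 CPM against 13.3, 13.3, 12.4 and 11.5 CPM (log2 fold change 1.05, SE 0.55). The gap between the groups was wide for Gbp7. Its level in the Low mice, which share the error estimate of the edgeR fit, ran from 4.43 to 29.3 CPM. The adjusted p of Gbp7 was 0.00237 in DESeq2 on the 7 High mice, 0.881 in DESeq2 on all 15 mice and 0.30 in voom. Averaged over the list, High Control lay between -0.11 and 0.09 and High Run between 0.30 and 1.31, with D62 the lowest. Low Control mice, which had not run, lay between -0.29 and 1.53 on that scale, with D11 above every High Run mouse.

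Genes induced by type I interferon were split by mouse. Of 37 tested, 5 were higher at an unadjusted p under 0.05 (13.5%) and none lower, with a median of 0.50. On the list average High Control lay between -0.20 and 0.19 and High Run between -0.30 and 0.86. Low Control lay between -0.36 and 1.01 on that scale. Isg20 stood at 1.62, 1.92 and 1.92 CPM in High Control and at 5.52, 3.30, 20 and 4.79 CPM in High Run (log2 fold change 2.21, SE 0.57). Rsad2, the antiviral enzyme viperin, stood at 7.99, 7.05 and 9.72 CPM against 20.2, 12.0, 51.4 and 11.9 CPM (log2 fold change 1.53, SE 0.55). Isg15, a ubiquitin-like modifier, stood at 1.20, 1.03 and 0.862 CPM against 2.92, 2.33, 8.53 and 0.661 CPM. In each of these 3 genes D53 was the highest of the 7 mice. The log2 fold changes without D53 were 1.32, 0.83 and 0.92, the list median without D53 was 0.31, and without D62, 10 of the 37 genes had an unadjusted p under 0.05.

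Short stretches upstream of transcription starts show the letters that the interferon pathways are known to use. Windows of 250 bases before the start were taken from RefSeq (GRCm38.p6) and searched on both strands for the interferon-stimulated response element, taken as TTTC repeated after any 2 bases, and for the gamma-activated site as TTCNNNGAA. Of the 18 GTPase genes tested, 10 had a window, 9 of the 10 held the response element and 6 of the 10 the gamma-activated site. The 1 without a response element was Ifi47, the GTPase gene counted above at p under 0.05, and it held neither motif. Neither motif was found for Tap1 or H2-D1, and the 3 windows of Isg20 held no response element. Over the 11409 tested genes with a window the shares were 3.25% and 7.13%. For type I interferon genes, 10 of 24 with a window held the response element, and for MHC class I genes 3 of 17. The stretches that follow show both motifs close together in Gbp7 and Igtp, and the response element in Rsad2 and in Isg15, where 3 overlapping matches form 1 run. Capitals mark the matches, and each stretch reads 5′ to 3′ on the strand of its gene: chr3:142530203-142530302 (plus) for Gbp7, chr11:58199465-58199555 (plus) for Igtp, chr12:26456518-26456617 (minus) for Rsad2 and chr4:156200842-156200941 (minus) for Isg15.
Gbp7: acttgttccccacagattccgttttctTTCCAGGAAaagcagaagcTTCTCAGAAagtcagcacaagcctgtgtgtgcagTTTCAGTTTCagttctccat
Igtp: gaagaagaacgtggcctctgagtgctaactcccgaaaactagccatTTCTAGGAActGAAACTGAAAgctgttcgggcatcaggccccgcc
Rsad2: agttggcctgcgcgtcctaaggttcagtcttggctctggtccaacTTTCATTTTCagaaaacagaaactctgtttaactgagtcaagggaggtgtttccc
Isg15: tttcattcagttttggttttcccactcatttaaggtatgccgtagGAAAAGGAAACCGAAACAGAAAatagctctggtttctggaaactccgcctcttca

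The response element of Gbp7 began 53 bases before the start and that of Igtp 34 bases before it. A match is a description of the letters and was not tested for binding. Genes with both motifs did not share 1 pattern of values. Igtp stood at 18, 19.4 and 12.6 CPM in High Control and at 17.2, 34.3, 26.9 and 15.1 CPM in High Run, with the groups overlapping, while Gbp7 showed the wide gap given above.

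Immediate early genes were the list with the most genes lower in High Run. All 27 members were tested, 10 were lower at an unadjusted p under 0.05 (37%, beside 1.9% of all genes) and none was higher, and 6 were lower without overlap (3.6% of all genes). The list median was -0.45. Fosb, a partner in the AP-1 transcription factor (chr7:19302696-19310051, minus strand), stood at 96.3, 18.6 and 58.9 CPM in High Control and at 13.4, 5.22, 3.63 and 2.21 CPM in High Run, 9.53-fold lower (log2 fold change -3.25, SE 1.06). Control mice D23 and D25 differed from each other more than D25 did from the nearest High Run mouse. Fos stood at 177, 67.2 and 130 CPM against 36.7, 47.9, 12.7 and 14.8 CPM (log2 fold change -2.16, SE 0.68). Egr1, a zinc finger transcription factor, stood at 161, 53.5 and 139 CPM against 39.2, 25.2, 17.0 and 17.6 CPM (log2 fold change -2.25, SE 0.63). For Fos and Egr1 the control mouse D25 was again the lowest of the 3.

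The nuclear receptors of the NR4A family and a phosphatase showed the same direction. Nr4a1 stood at 470, 438 and 208 CPM in High Control and at 124, 205, 229 and 121 CPM in High Run (log2 fold change -1.13, SE 0.30), so that D67 lay among the High Run mice. Nr4a2 and Nr4a3 had log2 fold changes of -1.25 and -1.81. Dusp1, which inactivates mitogen-activated kinases, stood at 124, 168 and 133 CPM against 63.1, 71.4, 32.6 and 62.4 CPM (log2 fold change -1.30, SE 0.33). Unlike Fosb, Dusp1 was nearly even among the controls. Srf, the serum response factor that drives many immediate early genes and muscle actin, differed little but evenly, at 98.5, 96.7 and 100.4 CPM against 76.6, 77.6, 75.9 and 64.1 CPM (log2 fold change -0.42, SE 0.11). Low Control mice stood between these groups for Srf, at 84.5 to 93.7 CPM. Members that stood at small log2 fold changes were Jund (-0.09), Egr3 (0.04) and Ier3 (0.05), and Jun (-0.23) was highest in D62 at 275 CPM.

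Averaged over the list, the 4 High Run mice lay between -0.77 and -0.54 and the 3 High Control mice between -0.22 and 0.36. The median of the list was -0.71 without D62, with 11 genes lower at p under 0.05, and -0.30 without High Control mouse D23. The 4 Low Control mice spanned -0.96 to 0.51 on the same scale, and D98 at -0.96 lay below all 4 High Run mice and D11 at -0.76 among them, so the level of these genes varied widely among mice that had not run.

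Of the 21 immediate early genes with an upstream window, 3 held the cyclic AMP response element TGACGTCA (2.8% of tested genes), 2 held a CArG box, the site that SRF binds (1.43% of tested genes), and 0 held the AP-1 site TGANTCA (5.79% of tested genes). Srf itself, which is not in that list, held 2 CArG boxes. The stretches shown are those of the 2 named lower genes with a match, at chr17:46556190-46556289 (minus) for Srf and chr17:26508562-26508661 (minus) for Dusp1, with the CArG boxes and the cyclic AMP response element in capitals.
Srf: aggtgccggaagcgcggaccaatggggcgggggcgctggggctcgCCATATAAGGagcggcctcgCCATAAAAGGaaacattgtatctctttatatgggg
Dusp1: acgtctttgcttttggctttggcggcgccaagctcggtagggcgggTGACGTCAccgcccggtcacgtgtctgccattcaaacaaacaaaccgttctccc

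**Figure D3:**
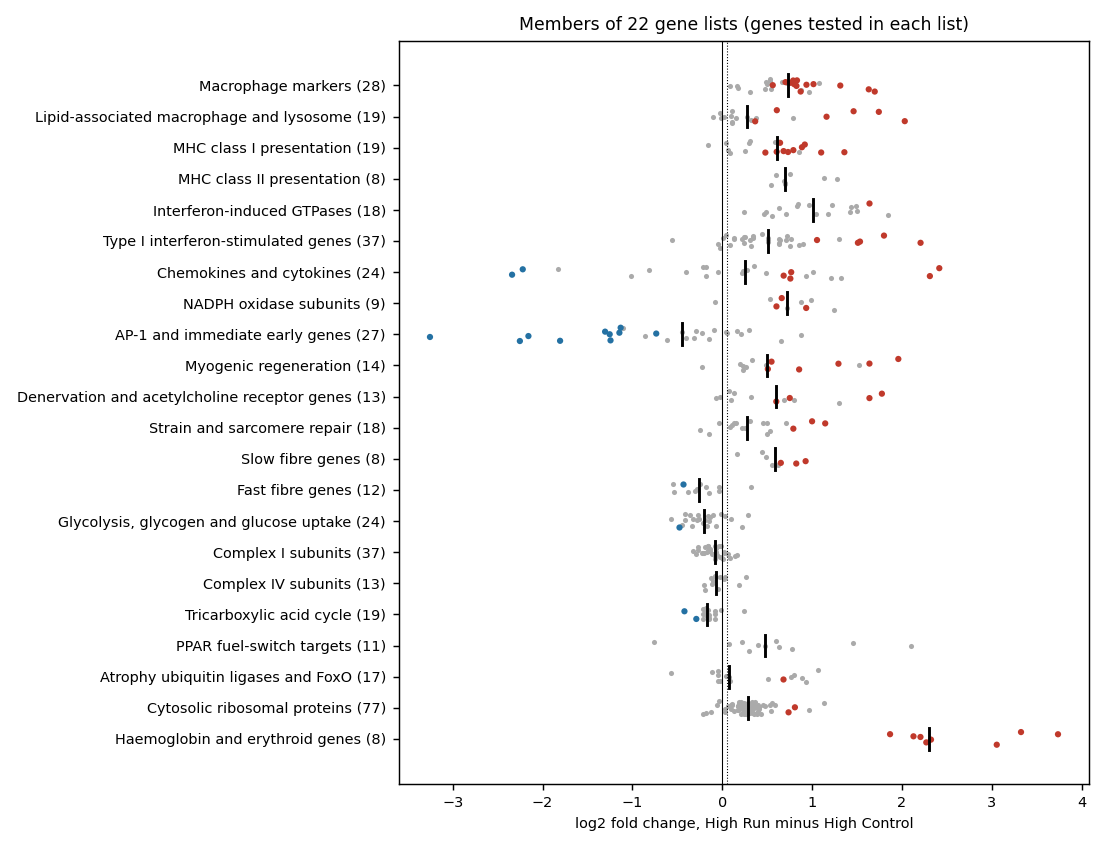
Log2 fold change of High Run minus High Control for each tested member of 22 gene lists, 1 point a gene, with members at an unadjusted p under 0.05 in red (higher) or blue (lower), the list median as a black bar and the median of all genes as a dotted line. MHC class I (10 of 19), macrophage markers (13 of 28) and haemoglobin and erythroid genes (8 of 8) hold red points only, and the immediate early genes (10 of 27) hold blue points only.

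Some genes of regeneration and of the neuromuscular junction were higher. Of 14 myogenic regeneration genes, 6 were higher at an unadjusted p under 0.05 (42.9%) and none lower, with a median of 0.49. On the list average High Run lay between 0.44 and 0.87 and High Control between -0.05 and 0.09, without overlap. Low Control lay between 0.17 and 0.54 on that scale. The summed level of the list did overlap, at 4311 to 5117 CPM in High Control and 4705 to 6770 CPM in High Run. Myh3, embryonic myosin heavy chain (chr11:67078300-67102291, plus strand), stood at 11.6, 4.80 and 6.89 CPM in High Control and at 10.5, 15.5, 23.8 and 26.2 CPM in High Run (log2 fold change 1.29, SE 0.32). The groups overlapped at D23 and D49. Myog, the transcription factor myogenin, stood at 5.52, 10.6 and 4.64 CPM against 14.0, 15.4, 8.33 and 48.5 CPM (log2 fold change 1.64, SE 0.54), and 0.85 without D62. Mymk, the fusion protein myomaker, stood at 0.348, 0.332 and 0.431 CPM against 0.617, 0.522, 2.18 and 2.42 CPM, which placed D53 and D62 well above D49 and D52. Pax7 and Myod1, which mark satellite cells and committed myoblasts, had log2 fold changes of -0.22 and 0.26 (SE 0.44 and 0.51), and none of the 8 satellite cell markers had an unadjusted p under 0.05.

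Acetylcholine receptor genes were higher in part. Of 13 genes of denervation and the receptor, 4 were higher at p under 0.05 (30.8%). Chrng, the fetal gamma subunit that fibres express again after loss of nerve contact, stood at 0.463, 0.554 and 0.287 CPM in High Control and at 1.52, 1.88, 1.44 and 1.23 CPM in High Run (log2 fold change 1.78, SE 0.73). Chrna1 and Chrnb1, subunits of the fetal and the adult receptor, had log2 fold changes of 0.75 and 0.60. The groups did not overlap for Chrng and Chrna1. The list median was 0.60, and stood at 0.36 without D49, 0.40 without D52 and 0.41 without D62. Schwann cell and myelin genes also had positive values (median 0.45 over 10 genes, 2 at p under 0.05), with D62 the highest mouse, and their median was 0.12 without D62.

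Of 18 genes of load and sarcomere repair, 3 were higher at an unadjusted p under 0.05 (16.7%) and none lower. The list median was 0.28, or 0.46 without High Control mouse D23. On the list average High Control lay between -0.15 and 0.29, High Run between 0.22 and 0.465 and Low Control between 0.24 and 0.585. Beside Ankrd1 the genes at that p were Csrp3, the Z-disc sensor muscle LIM protein (log2 fold change 0.79), and Ankrd2 (1.14). Control mouse D23 stood far above the other 2 controls for both, at 104 beside 35.6 and 40.7 CPM for Csrp3 and at 217 beside 53.3 and 70.4 CPM for Ankrd2, which left the groups overlapping. Hspb7, a small heat shock protein of striated muscle, was the 1 of 20 chaperones at p under 0.05, at 762, 348 and 420 CPM against 895, 912, 792 and 1012 CPM (log2 fold change 0.82). The inducible chaperones did not share this, and the list median was -0.06. Sln, sarcolipin, which uncouples the calcium pump SERCA, was singled out after its values were seen. It stood at 6.72, 8.79 and 4.98 CPM against 28.2, 41.3, 15.6 and 88.8 CPM (log2 fold change 2.67, SE 0.73), without overlap.

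Fibre type genes were counted in 2 lists. Of 8 slow fibre genes, 3 were higher at p under 0.05 (37.5%) and all 8 were positive with a median of 0.58. Tnni1, slow troponin I, stood at 128, 116 and 91.4 CPM in High Control and at 109, 162, 268 and 311 CPM in High Run, so that D49 lay among the controls. With D53 and D62 both left out the slow list's median was 0.09. Of 12 fast fibre genes, 11 had a negative log2 fold change, with a median of -0.26, and 1 was lower at p under 0.05. That gene was Myh4, the myosin of the fastest fibres, at 58632, 51117 and 51769 CPM against 50216, 42367, 34444 and 31554 CPM (log2 fold change -0.44, SE 0.19). The summed level of the fast list was 177000 to 200300 CPM in High Control and 142000 to 159900 CPM in High Run, without overlap. Low Control mice, which had not run, spanned 151400 to 209200 CPM for the fast list and overlapped both groups. The summed level of the slow list was 1913 to 2895 CPM in High Control and 2198 to 4977 CPM in High Run, with overlap.

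Genes of energy metabolism showed small differences. Pygm, muscle glycogen phosphorylase, stood at 11898, 10589.6 and 10086 CPM in High Control and at 7701, 7864, 8556 and 6926 CPM in High Run (log2 fold change -0.48, SE 0.15). It was the 1 of 24 genes of glycolysis, glycogen and glucose uptake at p under 0.05, and 20 of the 24 had negative values, with a median of -0.20. In the tricarboxylic acid cycle, 18 of 19 genes had negative values with a median of -0.17, and Suclg2 and Idh3a, subunits of succinyl-CoA ligase and isocitrate dehydrogenase, had a p under 0.05 (log2 fold changes -0.29 and -0.42). Without D62 that median was -0.07. None of the 37 complex I, 4 complex II, 9 complex III, 13 complex IV and 15 ATP synthase genes tested had an unadjusted p under 0.05 in either direction.

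The respiratory chain medians were small and moved with the mice included. For complex I, 30 of 37 genes were negative and the median log2 fold change was -0.08 over all 7 mice. It stood at -0.02 without D62, -0.23 without D53, -0.16 without High Control mouse D25 and -0.14 with D53 and D62 both left out. For complex IV the median of -0.07 ranged from -0.20 without D53 to -0.0045 without D62 when 1 High mouse was left out. Averaged over the complex I list, D53 was the highest of the 7 mice at 0.22 and D62 the lowest at -0.43. The High Control mice lay between -0.12 and 0.07. Fatty acid oxidation (20 genes), the core clock (19 genes) and regulators of mitochondrial biogenesis (16 genes) had no gene at p under 0.05. Among 24 genes of hydrogen peroxide handling, Hmox1, heme oxygenase, was the 1 at p under 0.05 (log2 fold change 0.94, and 0.59 without D62). Cytosolic ribosomal protein genes were slightly positive in 72 of 77 cases with a median of 0.28, but 2 of 77 reached p under 0.05 (2.6%, under the share over all genes), and the median was 0.14 without D62.

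Haemoglobin and erythroid genes showed the highest list median. All 8 tested were higher at an unadjusted p under 0.05, with a median log2 fold change of 2.30. Hbb-bs, an adult beta globin, stood at 211, 329 and 232 CPM in High Control and at 629, 263, 2743 and 863 CPM in High Run (log2 fold change 2.13, SE 0.71). Alas2, the first enzyme of heme synthesis in erythroid cells, stood at 15.1, 28.2 and 18.4 CPM against 67.4, 23.3, 244 and 76.8 CPM (log2 fold change 2.32, SE 0.74). Mouse D52 lay within the controls for both and D53 was far above every other High mouse. The globin genes are near-identical copies, so their separate levels from uniquely aligned reads are uncertain. The median was 1.36 without D53 and 1.00 in voom, and the 4 Low Control mice spanned 0.24 to 3.22 on the list average, beside 0.43 to 3.82 in High Run and -0.21 to 0.37 in High Control. Blood left in the muscle carries these messages, and its part in the results for D53 was not tested.

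**Figure D4:**
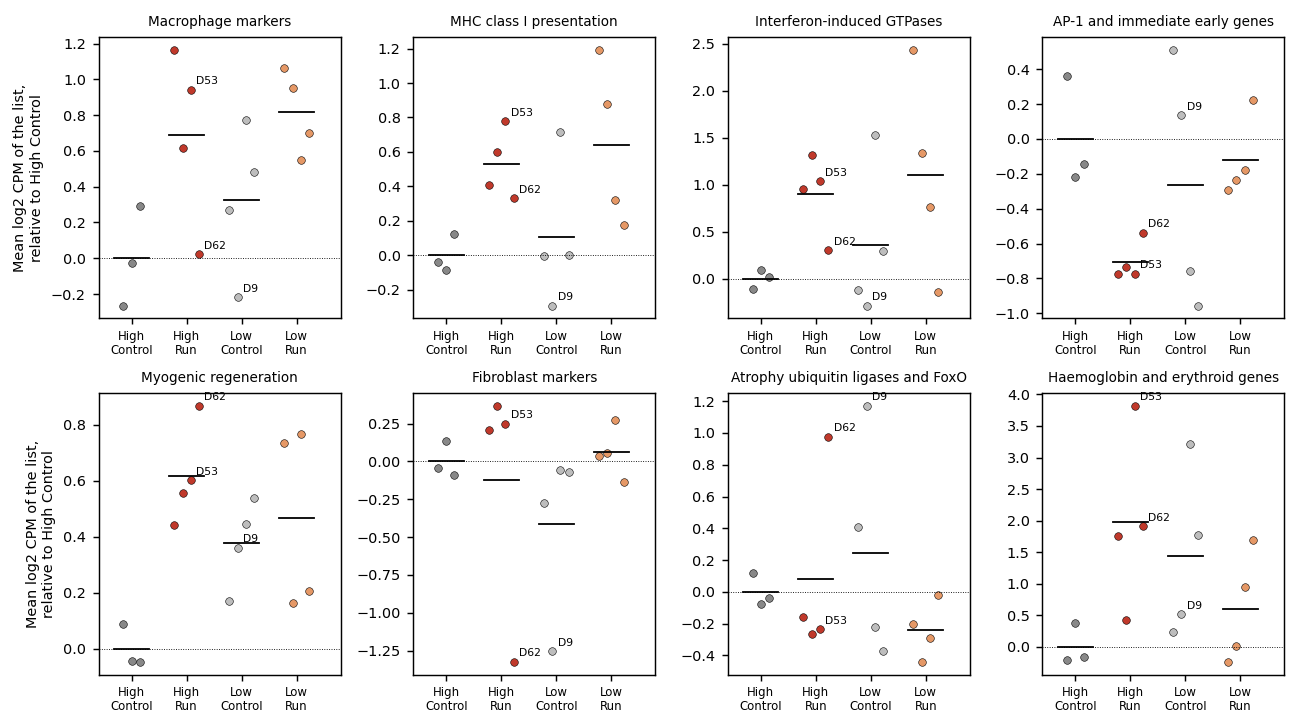
Mean log2 CPM of 8 gene lists in each of the 15 mice, set to 0 for the mean of High Control (y axis), with 1 point a mouse, a bar at each group mean, and mice D9, D53 and D62 labelled. High Run lies below High Control for the immediate early genes without overlap, D62 is apart for fibroblast markers and atrophy genes, where Low Control mouse D9 takes a like position, and D53 is highest for erythroid genes.

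Mouse D62 carried a set of its own. Atrophy and FoxO genes had a median log2 fold change of 0.08 over all 7 mice and -0.26 without D62, and on the list average D62 stood at 0.98 while the other 3 High Run mice lay between -0.26 and -0.16. The genes given here were chosen after their values were seen. Trim63, the muscle ubiquitin ligase MuRF1, was at 3834 CPM in D62, between 363 and 401 CPM in the other High Run mice and between 458 and 736 CPM in High Control. Foxo1, a transcription factor of fasting and atrophy, was at 332 CPM in D62 and at most 70.3 CPM in the other 6 mice. Pdk4, which blocks pyruvate entry into mitochondria, was at 4684 CPM in D62 and between 305 and 1654 CPM in the other 6. With D62 left out, the log2 fold changes of these 3 genes were -0.67, -0.40 and -1.09 in place of 1.06, 0.93 and 0.47. Fibroblast markers were low in the same mouse, with Dpt, a matrix protein, at 10.9 CPM beside 45.5 to 56.6 CPM in the other 6 mice. Low Control mouse D9, which had not run, stood at 6083 CPM for Trim63, 282 CPM for Foxo1, 6837 CPM for Pdk4 and 21.2 CPM for Dpt. The direction of the 24 named genes cannot turn when a High Run mouse is left out, because the rule that named them asks for groups without overlap.

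Whether the response differed with frailty was tested as the interaction, the High difference minus the Low difference, in the same edgeR fit. No gene reached FDR 0.1 (0 of 16920, or 0%), while 887 had a positive and 455 a negative interaction at an unadjusted p under 0.05 (5.24% and 2.69%, 7.93% together). Between Low Run and Low Control 5.92% of genes were higher and 7.52% lower at an unadjusted p under 0.05. For the 12 named higher genes the Low log2 fold change was between -0.53 and 0.62, with 8 of 12 in the same direction, and 9 of 12 had an interaction p under 0.05. For the 12 named lower genes it was between -0.75 and 0.24, with 9 of 12 in the same direction, and 7 had an interaction p under 0.05. These genes were chosen by their High difference, which is a part of the interaction, so the counts are a description, and the smallest adjusted interaction p among them was 0.60 in edgeR.

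Some genes had Low differences near 0. Egr1 had a log2 fold change of -2.25 in High and 0.24 in Low mice (interaction -2.50, SE 0.85), and Rin1 had 1.6 and -0.28 (interaction 1.88, SE 0.50). Coq10b had -0.91 and 0.02 (interaction -0.93, SE 0.26). Myh3 had 1.29 and -0.25 (interaction 1.54, SE 0.43). The controls themselves did not overlap for several named genes, among them Coq10b, Rin1, Mpeg1, Isg20, Lgals3, Gda and Anxa4. Low Control mice stood at 17.8 to 27.9 CPM for Coq10b and at 1.74 to 3.01 CPM for Rin1. High Control mice stood at 31.7 to 39.1 and at 0.670 to 1.33 CPM, without overlap. For Egr1 the controls overlapped, at 33.1 to 257 CPM in Low and 53.5 to 161 CPM in High mice. The part of the control levels in these interactions was not tested. For other genes the unadjusted interaction p was over 0.05, which does not show that the responses were alike. Mpeg1 had 1.31 in High and 0.62 in Low mice (interaction 0.69, SE 0.38), Gbp7 had 1.05 and 0.50 (interaction 0.55, SE 0.73), H2-D1 had 0.64 and 0.50 (interaction 0.14, SE 0.30), and Myh4 had -0.44 and -0.48 (interaction 0.04, SE 0.25).

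By list, the medians in High and Low mice stood at 0.60 and 0.54 for MHC class I, 1.00 and 0.83 for the interferon-induced GTPases, 0.73 and 0.56 for macrophage markers and 0.70 and 1.12 for MHC class II. They were larger in Low mice for lymphocyte markers, at 1.39 and 2.75, and for neutrophil and acute-phase genes, at 0.59 and 2.16. On those list averages Low Run mice D61 (4.04) and D68 (4.06) were the highest, in that order. The medians stood at -0.45 and 0.02 for the immediate early genes, where 5 of 27 had a negative interaction at p under 0.05 and none a positive one. For the respiratory chain and mitochondrial ribosomal lists the signs were opposite. The High medians were small, and some changed sign when a single mouse was left out. Without D62 they stood at 0.0039 for complex II and 0.02 for ATP synthase, and without D67 at 0.0082 for mitochondrial ribosomal proteins. On the complex I list average, D62 in High Run (-0.43) and D9 in Low Control (-0.50) were the lowest mice. The part of these mice in the interaction was not tested. The medians stood at -0.08 and 0.26 for complex I, where 3 of 37 had a negative and none a positive interaction at p under 0.05, and at -0.02 and 0.23 for mitochondrial ribosomal proteins, where 8 of 77 had a negative and none a positive one. They stood at -0.12 and 0.26 for complex II, -0.11 and 0.25 for complex III, -0.07 and 0.22 for complex IV and -0.09 and 0.24 for ATP synthase, with no interaction p under 0.05 among these genes. For erythroid genes they stood at 2.30 and -1.18, and all 8 had a positive interaction at p under 0.05. None of the 18 GTPase or 19 MHC class I genes had an interaction p under 0.05. For the atrophy list 5 of 17 had a positive interaction at p under 0.05, and mice D62 and D9, which stood apart for these genes, lie on the sides that make that interaction positive, in High Run and in Low Control. Their part in it was not tested.

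**Figure D5:**
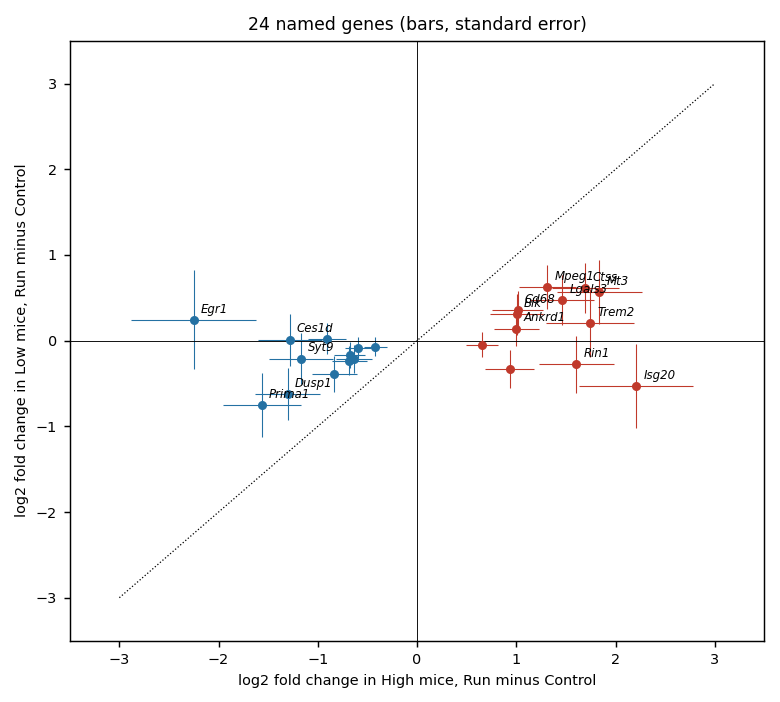
Log2 fold change of the 24 named genes in High mice (x axis, Run minus Control) and in Low mice (y axis, Run minus Control), with standard errors as bars and the line of equal change dotted. Genes named as higher (red) and as lower (blue) lie nearer to 0 on the Low axis than on the High axis, by which they were chosen, and Isg20, Egr1 and Rin1 are among the 7 genes with opposite signs on the 2 axes.

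The 19 genes that the study names for this comparison were all tested here. Groups did not overlap in 18 of the 19, and 16 had an unadjusted p under 0.05 in edgeR, none at FDR 0.1, while DESeq2 on the 7 High mice called all 19. The study chose these genes on the same mice, so these counts are not independent evidence of their direction. Of the 8 among them that it plots, Ifi47, Isg20, Mpeg1, Ccl8, Ctss, Fosb and Junb have their values here, and Iigp1, another interferon-induced GTPase, stood at 6.84, 5.91 and 8.09 CPM against 16.8, 30.2, 20.1 and 11.6 CPM (log2 fold change 1.5, SE 0.82). Junb stood at 93.5, 30.5 and 68.7 CPM against 28.6, 20.6, 21.8 and 37.4 CPM, and it was the 1 of the 19 with overlapping groups.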

How the data were processed

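Gastrocnemius RNA of 15 mice was sequenced from polyadenylated libraries. The deposited table holds whole-number counts of reads per gene, which the authors made with STAR (version 2.7.9a per the labels) on mm10 and featureCounts with Ensembl build 100, keeping uniquely aligned proper pairs on the gene's strand and leaving out mitochondrial genes. The labels name Subread 2.0.3 and the methods another version. Totals ran from 21110987 to 30699216 counts in the 7 High mice and from 19395125 to 26003872 in the 8 Low mice.

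Counts were filtered with filterByExpr, scaled by TMM and fitted with edgeR 4.0.16 (R 4.3.3) as 4 groups over all 15 mice, with the quasi-likelihood test and Benjamini-Hochberg adjustment at FDR 0.1. The study's methods used DESeq2, which is an alternative here (version 1.42.0), as is limma voom 3.58.1. Named genes were the 12 with the smallest p in each direction among protein-coding genes with a standard symbol, a mean of at least 1 CPM and no overlap between the groups. Up to 4 members per gene list by smallest p, defining members and the genes the study names were added. The 47 lists and the comparison were chosen with earlier results of these data known. List averages are mean log2 CPM with a prior count of 2. No unassigned columns were left out (0). Within-group pairs of High libraries differed by more than sampling noise (chi-square per degree of freedom 15.7 to 191). On simulated counts with the same means (16675 genes), 39 of 50 genes changed by a log2 of 2 were called at FDR 0.1, and 24 of 50 raised and 20 of 50 lowered by a log2 of 1. There were 14 false calls. These rates hold for the simulated spread, while in the measured counts 0 of 16920 genes were called.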

Additional observations from a re-analysis of the deposited data

Results flagged for a closer look

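In 10 of 85 genes and gene lists checked in the 4 High Run mice, 1 mouse lay apart by Dixon's criterion, which chance meets in about 1 of 20 groups. Mouse D62 was apart for Lgals3, at 49.6 CPM with the next mouse at 26.7 CPM, and for Srf, at 64.1 CPM with the next at 75.9 CPM. Mouse D53 was apart for Isg20, at 20 CPM with the next at 5.52 CPM. Mouse D52 was apart for Ccl8, at 3.97 CPM with the next at 2.89 CPM.

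On list averages in log2 CPM relative to High Control, D62 was apart for 4 lists. It stood at -0.5377 for immediate early genes (next mouse -0.7335), at 0.9761 for atrophy and FoxO genes (next -0.157), at -1.3242 for fibroblast markers (next 0.2056) and at 0.7018 for p53 targets and senescence (next 0.0296). Mouse D53 was apart for mitochondrial ribosomal proteins, at 0.2289 (next -0.1256), and D52 for satellite cell markers, at 0.1784 (next -0.0834).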

How the results depend on the processing

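No paired analysis was possible because the labels give no replicate numbers that the groups share. The number of genes at FDR 0.1 was 0 with edgeR, 15 with DESeq2 on 15 mice, 53 with DESeq2 on the 7 High mice, 45 with voom and 19 without the filter on low counts. At an unadjusted p under 0.05, 1357 genes were higher and 943 lower with voom, and 1219 higher and 496 lower without the filter, where more genes are tested. Leaving out each High mouse in turn gave 0 genes at FDR 0.1 each time, 375 (without D23) to 648 (without D49) higher and 211 (without D67) to 476 (without D49) lower. With D53 and D62 both left out, an alternative chosen after seeing the data, 639 were higher and 239 lower. The log2 fold changes of 38 genes, the 24 named ones and those the study names, had the same sign under each alternative run (0 values with another sign). For genes without overlap between the groups, which the naming rule asks for, leaving out a mouse cannot change the sign, so this is no sign of stability. Of these values, 73 were called at FDR 0.1 under the DESeq2, voom and unfiltered fits. The interaction changed sign for Iigp1 (-0.0344 without D25 and -0.2053 without D52) and for Lcn2 (-0.1974 without D53 and -0.5193 without D53 and D62), and the cause was not tested. Of the list medians under the alternatives, 779 moved by less than the spread between mice and 19 moved by more, among them adipocyte markers (0.24 without D25) and strain genes (0.46 without D23). The neutrophil median of 0.59 ranged from 0.03 without D49 to 1.48 without D23. Other scalings shifted the median of all genes to between 0.0284 and 0.0553. With 3 and 4 mice, changes near a log2 of 1 were often missed in simulated data.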

Other observations

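Lists not yet described were mostly without genes at an unadjusted p under 0.05. Cell cycle genes had 2 of 14 higher and a median log2 fold change of 0.53, with Mki67, a proliferation marker, at 1.54 (SE 0.71). Extracellular matrix had 1 of 24, Timp1, an inhibitor of metalloproteinases, at 0.965, 1.11 and 0.718 CPM in High Control and at 2.39, 2.68, 2.99 and 0.976 CPM in High Run. Mouse D62 lay among the controls for Timp1. Endothelial markers (12 genes), SUMO conjugation (17), the integrated stress response (17) and adipocyte markers (10) had none, and autophagy had 1 of 17, which was lower. Metallothioneins had a median of 1.07, and of -0.16 without D62, where Mt1 stood at 215 CPM beside 21.4 to 55.7 CPM in the other 3 High Run mice and 209 CPM in Low Control mouse D9.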
